A study of Mus musculus with 30 samples.

Results

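Basic helix-loop-helix (bHLH) transcription factors of the neurogenin, Neurod and Nhlh families were followed through the neural differentiation of mouse embryonic stem (ES) cells. The genes were Neurog1, Neurog2, Neurod1, Neurod4, Nhlh1 and Nhlh2, 6 of the 15964 genes named on the arrays, taken by name. They were chosen with earlier results of these data known. They had 10 of the 36701 probe sets left after the control probe sets, and each of the 10 named its gene alone. In GRCm38.p6 the genes lie at chr13:56250478-56252180 (Neurog1), chr3:127632733-127635636 (Neurog2), chr2:79452637-79456636 (Neurod1), chr10:130268152-130280254 (Neurod4), chr1:172052292-172057596 (Nhlh1) and chr3:102010111-102015492 (Nhlh2). The ES cells (129 derived) carried Sox1-GFP, a green fluorescent reporter of Sox1, which is a gene of the early neural plate. They were grown as floating aggregates in serum-free medium (the SFEB method), dissociated, and sorted by flow cytometry with Sox1-GFP or with E-cadherin, an adhesion protein of undifferentiated cells. There were 10 samples in 8 groups. These were ES cells sorted as E-cadherin-positive (3 samples), day 1 aggregates with no sort label, day 2 E-cad (-) and E-cad (+) cells, day 3 Sox1 (+) and Sox1 (-) cells, and day 4 and day 5 Sox1 (+) cells (1 sample each). All of them carried the Sox1-GFP reporter and all came from 1 line, so there was no sample of another line.

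Polyadenylated RNA was converted to biotin-labelled cRNA and hybridised to Affymetrix U74 version 2 arrays, which come as 3 chips (A, B and C), so that 30 arrays were read. The values were linear intensities per probe set, and precision is limited by how few arrays there were. Replicates exist for ES cells alone. No label says that they were separate cultures, so the p-values cover a spread that may be technical. Signal ratios between the 3' and 5' ends of the actin control transcript, a measure of RNA integrity, stood apart in a few samples. On chip A the ratio was 1.33 in day 2 E-cad (-) cells, 1.34 in day 5 cells and 1.70 in ES sample 3, against 0.939 to 1.15 in the other samples. The same ratio of the Gapdh control on chip A was 1.03, 0.870 and 0.866 in these samples, against 0.792 to 0.901 in the others. Day 5 cells and ES sample 3 thus stood apart there by actin and not by Gapdh. On chip C the Gapdh ratio was 1.04 in ES sample 3, against 0.898 to 0.938 in the other samples. The sorted samples differed less in the mRNA of the sorting markers than in neural and pluripotency genes. Cdh1, the E-cadherin gene, had an intensity of 565 in day 2 E-cad (-) cells and 572 in day 2 E-cad (+) cells, and Sox1 had 251 and 253. Pou5f1, a pluripotency factor, had 4024 in day 2 E-cad (-) cells and 11905 in day 2 E-cad (+) cells. In bulk samples of this kind, fewer cells expressing a gene and less RNA per cell cannot be told apart.

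Proneural factors such as the neurogenins commit dividing neural progenitors to a neuronal fate. They work as dimers with the widely expressed E proteins, bind the E-box motif CANNTG, and switch on later bHLH genes, among them members of the Neurod and Nhlh families, as cells leave the cycle. Id proteins hold E proteins in inactive dimers and Hes repressors, downstream of Notch, oppose proneural genes, so that only some progenitors differentiate at a time. Neurog1 and Neurog2 are expressed in progenitors of cranial sensory ganglia, spinal cord and cortex. Neurod1 and Neurod4 act later, in differentiating neurons, and Neurod1 also acts in endocrine cells of the pancreas and gut. Nhlh1 and Nhlh2 (also known as NSCL1 and NSCL2) mark newly formed neurons, and Nhlh2 has a later part in hypothalamic neurons.

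Promoter sequences are shown for Nhlh1, Nhlh2 and Neurod4, whose signals were highest in the same samples, since proneural factors act through E-boxes. The letters are the strand of the gene, 5′ to 3′, before the start site in RefSeq's annotation of GRCm38.p6, and capitals mark each CANNTG match. The window of Nhlh1 is chr1:172057597-172057846 (minus strand), that of Nhlh2 is chr3:102009895-102010110 (plus strand, ended early, where the annotated span of the gene begins) and that of Neurod4 is chr10:130280255-130280504 (minus strand).
Nhlh1: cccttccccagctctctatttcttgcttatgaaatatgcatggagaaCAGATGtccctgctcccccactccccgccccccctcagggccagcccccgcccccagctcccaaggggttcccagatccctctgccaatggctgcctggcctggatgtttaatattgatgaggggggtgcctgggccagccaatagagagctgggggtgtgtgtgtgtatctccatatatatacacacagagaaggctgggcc
Nhlh2: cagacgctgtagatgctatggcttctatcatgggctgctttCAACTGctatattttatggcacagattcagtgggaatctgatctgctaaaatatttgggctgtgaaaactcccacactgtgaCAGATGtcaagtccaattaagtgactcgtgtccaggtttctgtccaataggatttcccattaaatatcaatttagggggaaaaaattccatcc
Neurod4: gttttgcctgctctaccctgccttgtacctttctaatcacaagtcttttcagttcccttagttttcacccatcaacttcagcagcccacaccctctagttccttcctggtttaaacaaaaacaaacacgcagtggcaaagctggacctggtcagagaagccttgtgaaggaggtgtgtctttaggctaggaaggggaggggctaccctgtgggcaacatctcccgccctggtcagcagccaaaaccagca
CANNTG, which reads the same on both strands in its fixed letters, was searched on both strands in the 250 bases before the start site. Nhlh1 held 1 match, CAGATG, 203 bases before the start site. Nhlh2 held CAACTG and CAGATG, 209 and 127 bases before it. Neurod4 held none, nor did Neurog1, and Neurod1 held CATATG 242 bases before its start site. Across 32851 promoter windows of the same length 66.2% held a CANNTG and 14.4% held a CAGATG, so most promoters carry such letters. A match describes the letters and does not show that a factor binds there.

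**Figure D1:**
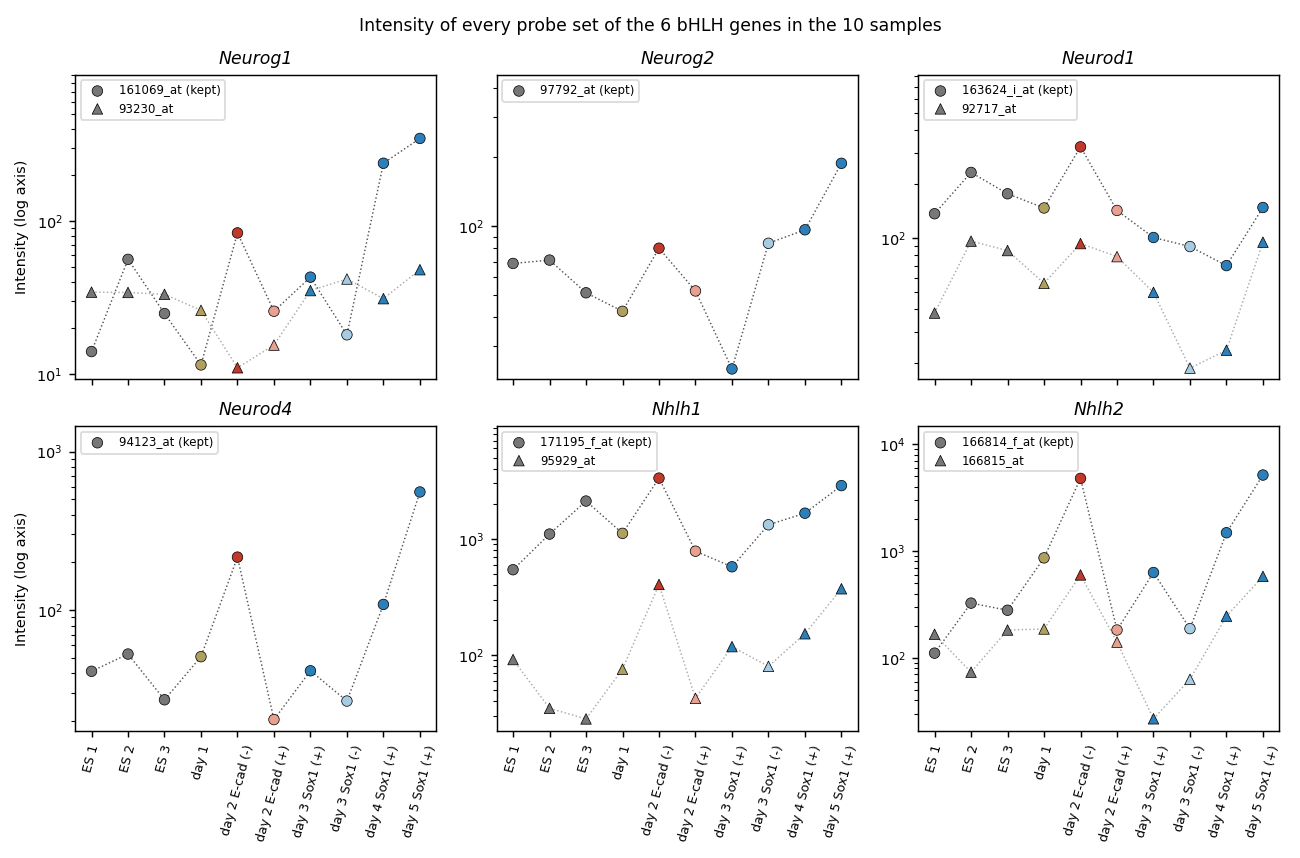
Intensity on a log axis (vertical) of each of the 10 probe sets in each of the 10 samples (horizontal), 1 panel per gene; circles are the probe set kept for the gene, triangles its other probe set, and dotted lines only join the points. Nhlh2, Nhlh1 and Neurod4 had their 2 highest values in day 2 E-cad (-) and day 5 Sox1 (+) cells.

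Neurog1 and Neurog2 are the upstream, proneural members. The kept probe set of Neurog1 (161069_at, chip A) had intensities of 14.1, 56.3 and 24.9 in ES samples 1 to 3, 11.5 on day 1, 83.7 in day 2 E-cad (-) cells and 25.8 in day 2 E-cad (+) cells. It then had 43.1 in day 3 Sox1 (+) cells, 18.1 in day 3 Sox1 (-) cells, 239 on day 4 and 347 on day 5. Neurog1 was thus low until day 3 and high in Sox1 (+) cells of days 4 and 5, with day 2 E-cad (-) cells just above the ES range. The second probe set of Neurog1 (93230_at) lay between 11.0 and 48.2 in all 10 samples and did not follow the first. It did not pass the filter on low signals, a mean intensity over the 10 samples at or above the 30th percentile of its chip. The probe sets disagree, and the later rise of Neurog1 rests on 161069_at alone.

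Neurog2 (97792_at, chip A) missed the same filter and was not tested. Its intensities were 68.7, 71.1 and 51.2 in ES samples 1 to 3, 42.5 on day 1, 80.1 in day 2 E-cad (-) cells and 52.1 in day 2 E-cad (+) cells. On day 3 it had 23.8 in Sox1 (+) cells and 84.1 in Sox1 (-) cells, and Sox1 (+) cells had 96.3 on day 4 and 188 on day 5. Day 5 was the highest sample, and day 3 Sox1 (+) cells were the lowest. In day 3 cells Neurog2 ran against the sort, with a difference of -1.33 between Sox1 (+) and Sox1 (-) cells on the scale used for all differences here, log2 of the intensity plus 16. That scale understates the changes of low signals such as these.

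The Neurod genes differed from each other in where they were high. Neurod4 (94123_at, chip A) had intensities of 41.2, 52.9 and 27.2 in ES samples 1 to 3, 50.9 on day 1, 216 in day 2 E-cad (-) cells and 20.4 in day 2 E-cad (+) cells. It had 41.5 in day 3 Sox1 (+) cells, 26.7 in day 3 Sox1 (-) cells, 109 on day 4 and 556 on day 5. Day 5 was the highest sample, day 2 E-cad (-) cells came second, and both lay outside the ES range. The other sort of day 2 lay below all 3 ES samples.

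Neurod1 (163624_i_at, chip B) had intensities of 137, 232 and 177 in ES samples 1 to 3, 147 on day 1, 323 in day 2 E-cad (-) cells and 142 in day 2 E-cad (+) cells. It had 101 in day 3 Sox1 (+) cells, 89.5 in day 3 Sox1 (-) cells, 70.1 on day 4 and 148 on day 5. Its single high sample was that of day 2 E-cad (-) cells, and its day 5 value lay within the ES range. The second probe set (92717_at), under the filter, had 93.0 in day 2 E-cad (-) cells, against 38.0 to 95.9 in ES cells, and 94.7 on day 5, so the peak of day 2 was not seen there. The suffix _i_at marks a probe set with fewer unique probes than the array's design asked for.

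Nhlh1 and Nhlh2, the markers of young neurons, reached the highest intensities of the 6 genes, although levels of different probe sets are not comparable. Nhlh2 (166814_f_at, chip C) had 111, 325 and 279 in ES samples 1 to 3, 862 on day 1, 4781 in day 2 E-cad (-) cells and 182 in day 2 E-cad (+) cells. It had 629 in day 3 Sox1 (+) cells, 188 in day 3 Sox1 (-) cells, 1483 on day 4 and 5139.8 on day 5. All 3 Sox1 (+) samples lay above the 3 ES samples, and the day 2 E-cad (-) sample was as high as that of day 5. The second probe set of Nhlh2 (166815_at, chip C) had 597 in day 2 E-cad (-) cells and 579 on day 5, against 166, 73.5 and 182 in ES samples 1 to 3. It differed on day 3, with 26.9 in Sox1 (+) cells and 63.0 in Sox1 (-) cells, both below the ES range, and had 246 on day 4.

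Nhlh1 had probe sets on 2 chips that agree on the 2 highest samples and differ in ES cells. The kept one (171195_f_at, chip C) had 543, 1099 and 2114 in ES samples 1 to 3, 1114 on day 1, 3328 in day 2 E-cad (-) cells and 783 in day 2 E-cad (+) cells. It had 575 in day 3 Sox1 (+) cells, 1321 in day 3 Sox1 (-) cells, 1661 on day 4 and 2870.2 on day 5. The ES samples spread widely, in the order of their actin ratios on the same chip, which were 0.996, 1.25 and 1.85. The ratio's part in this signal was not tested. The other probe set (95929_at, chip A) had 91.6, 34.9 and 28.3 in ES samples 1 to 3, 75.7 on day 1, 405 in day 2 E-cad (-) cells and 42.5 in day 2 E-cad (+) cells. It had 118 in day 3 Sox1 (+) cells, 80.1 in day 3 Sox1 (-) cells, 153 on day 4 and 372 on day 5, and here all 3 Sox1 (+) samples lay above the ES samples. The suffix _f_at of the kept probe sets of Nhlh1 and Nhlh2 marks probes shared by a family of transcripts, so these signals may not come from the named gene alone.

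Counted over the kept probe sets, day 2 E-cad (-) cells lay above all 3 ES samples in 6 of 6 genes, as they did for 33.7% of 12934 genes past the filter. Over all 10 probe sets they did so in 8, and not in the second probe sets of Neurog1 and Neurod1. Day 5 cells lay above all 3 ES samples in 5 of 6 genes by the kept probe sets, all but Neurod1, against 32.5% of those genes. The day 2 E-cad (-) and day 5 samples were the 2 highest of all 10 in 3 of 6 genes, Neurod4, Nhlh1 and Nhlh2, against 3.61% of those genes. Values that went up in the order day 3, day 4 and day 5 of the Sox1 (+) cells were seen in 5 of 6 genes, again all but Neurod1, against 20.7%. These counts describe an order in single samples and carry no test. The day 2 E-cad (-) and day 5 samples also had raised actin ratios on chip A, the chip of Neurod4. On chip C, that of the kept probe sets of Nhlh1 and Nhlh2, the ratio was 1.23 in day 2 E-cad (-) cells and 1.44 on day 5. ES samples 2 and 3 had 1.25 and 1.85 there. The ratio's part in this order was not tested. Neurod4 and Neurog1 are among the genes past the filter only through their 2 highest samples and Neurog2 is not past it, so the shares are printed as background and not as a contrast with the 6 genes.

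Day 5 Sox1 (+) cells were tested against ES cells with limma, in a fit of all 8 groups whose spread comes from the 3 ES samples. An adjusted p under 0.05 over 25690 probe sets was called, and 513 probe sets, 2.0% of them, were called higher. Neurog1, Neurod1, Neurod4, Nhlh1 and Nhlh2 were tested. Neurod4 and Neurog1, and 95929_at of Nhlh1, passed the filter only through their 2 highest samples, which include day 5, so they had to differ between samples to be tested at all. Of the 3 genes whose kept probe set passes without those samples (Neurod1, Nhlh1 and Nhlh2), Nhlh2 was called higher. Neurod4 had a log2 change of 3.37 (SE 0.335, limma adjusted p = 0.00726). Neurog1 had 3.02 (SE 0.482, adjusted p = 0.0245) and Nhlh2 had 4.46 (SE 0.672, adjusted p = 0.0373). Nhlh1 depended on the probe set: 95929_at had 2.64 (limma adjusted p = 0.0422) and the kept 171195_f_at had 1.39 (adjusted p = 0.442). Neurod1 had -0.24 (adjusted p = 0.793).

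The call of Neurod4 stood in all 12 alternative settings in which it was tested, with adjusted p-values up to 0.0360. The call of Neurog1 ended with a pseudocount of 1 (adjusted p = 0.0554) and with no filter (0.0631). That of Nhlh2 ended in 5 of 13 settings, among them without ES sample 2 (0.0854) and without ES sample 3 (0.0702), and that of Nhlh1 95929_at ended in 3 of 11 settings: a pseudocount of 1 (0.0713), the fit over unfiltered probe sets (0.0929) and the fit without ES sample 2 (0.146). Day 5 and ES sample 3 were, with day 2 E-cad (-) cells, the samples with raised actin ratios on chip A. The ratio's part in these differences was not tested.

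Day 2 E-cad (-) cells, tested against ES cells in the same fit, gave large differences and no call among the 5 genes. Limma called 7 probe sets in all, 0.0272% of those tested, so calls were rare for any gene here. Nhlh2 had a log2 change of 4.36 (SE 0.672, limma adjusted p = 0.121), about that of day 5. Nhlh1 95929_at had 2.76 (adjusted p = 0.120), Neurod4 2.06 (adjusted p = 0.0933), Nhlh1 171195_f_at 1.61 (adjusted p = 0.464), Neurog1 1.16 (adjusted p = 0.363) and Neurod1 0.80 (adjusted p = 0.406). Among the kept probe sets of Neurod1, Nhlh1 and Nhlh2, which pass the filter without their 2 highest samples, that of Nhlh2 alone was higher at an unadjusted p under 0.05, where 7.17% of all probe sets were. Neurod4, Neurog1 and Nhlh1 95929_at were higher at that level too, with the limit of the filter given above. Without ES sample 1, limma adjusted p fell below 0.05 for Nhlh2, Neurod4 and Nhlh1 95929_at (0.00108 for the last), and Nhlh2 also passed in 3 other settings. Leaving out ES sample 1 also took the calls over all probe sets from 7 to 473, and leaving out ES sample 2 took them to 0. The actin ratio of day 2 E-cad (-) cells was 1.33 on chip A, as given above, and 1.23 on chip C, the chip of Nhlh2. The ratio's part in the differences from ES cells was not tested.

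The sort of day 2 set E-cad (-) cells against E-cad (+) cells of the same day, with 1 sample on each side and so no test. The log2 difference was 4.60 for Nhlh2, 2.67 for Neurod4, 2.07 for Nhlh1 (2.85 for 95929_at), 1.25 for Neurog1, 1.10 for Neurod1 and 0.50 for Neurog2. Thus 5 of 6 genes were higher by 1 or more, beside 7.71% of the probe sets tested and with the same limit from the filter, and between pairs of ES samples 4.78% to 7.61% of probe sets were higher by that much. Nhlh2 had the 99.98th percentile of all tested differences and Neurod4 the 99.59th. Both probe sets of Nhlh1 and both of Nhlh2 were higher in the E-cad (-) sort, which also had lower Pou5f1, while the second probe set of Neurog1 was not. The second probe set of Neurod1 (92717_at) differed by 0.20 only.

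The sort of day 3 did not separate the genes in that way. Between Sox1 (+) and Sox1 (-) cells, again 1 sample on each side, Nhlh2 differed by 1.66, Neurog1 by 0.79, Neurod4 by 0.43, Neurod1 by 0.14, Nhlh1 by -1.18 and Neurog2 by -1.33. Only Nhlh2 of the 6 was higher by 1 or more, against 7.6% of the probe sets tested, and its second probe set was not. The probe sets of Nhlh1 went opposite ways, 171195_f_at by -1.18 and 95929_at by 0.48.

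In Sox1 (+) cells 5 of the 6 genes, all but Neurod1, had higher values on day 5 than on day 3 by 1 or more in their kept probe sets. Beside them 6.59% of the probe sets tested were higher by that much, with the limit of the filter given above, and Neurog2 was under the filter. The second probe set of Neurog1 (93230_at) differed by 0.33 only. Day 5 differed from day 3 by 3.31 for Neurod4, 3.00 for Nhlh2, 2.62 for Neurog1, 2.36 for Neurog2, 2.29 for Nhlh1 and 0.49 for Neurod1, on the log2 scale. A slope on day, fitted over the 3 Sox1 (+) samples with the ES samples adding to the estimate of spread, gave 1.66 per day for Neurod4 (limma adjusted p = 0.178), 1.50 for Nhlh2 (0.443), 1.31 for Neurog1 (0.407), 1.14 for Nhlh1 (0.586) and 0.25 for Neurod1 (0.880). No slope was called for any probe set on the arrays (0.0%). At an unadjusted p under 0.05 the slope was positive for Nhlh1 and Nhlh2 and not for Neurod1, and it was so for 4.39% of all probe sets. It was also positive at that level for Neurod4 and Neurog1, which passed the filter only through high samples that include day 5, so that no share is set beside them. On day 4 none of the 5 genes was called against ES cells (1.87% of probe sets were), and Neurog1 came nearest with a log2 change of 2.51 (limma adjusted p = 0.0617). At an unadjusted p under 0.05 the kept probe set of Nhlh2 was higher on day 4 and those of Nhlh1 and Neurod1 were not, where 8.78% of all probe sets were. Neurog1, Neurod4 and Nhlh1 95929_at were also higher at that level, with the limit of the filter given above. On day 3 Sox1 (+) cells had no call among them either (1.47% of probe sets), and none was higher at an unadjusted p under 0.05, where 7.63% of probe sets were.

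**Figure D2:**
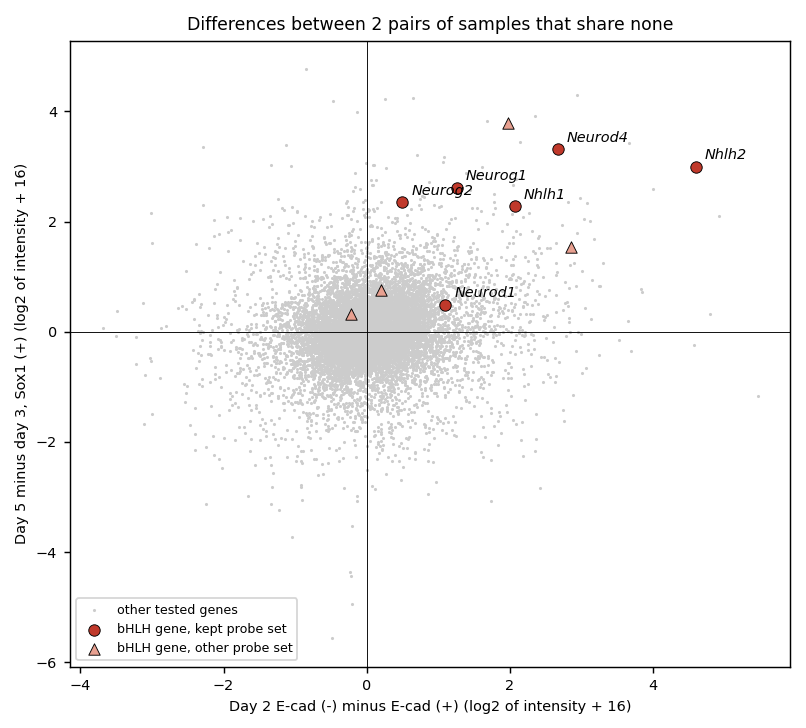
Each point is a gene: horizontal, its log2 difference between day 2 E-cad (-) and E-cad (+) cells; vertical, its log2 difference between day 5 and day 3 Sox1 (+) cells. Red circles are the kept probe sets of the 6 bHLH genes, light triangles their other probe sets and grey dots the other genes past the filter; Nhlh2, Neurod4, Nhlh1 and Neurog1 lie above 1 on both axes.

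The 2 differences plotted share no sample, and by their kept probe sets 4 of the 6 genes (Nhlh2, Neurod4, Nhlh1 and Neurog1) were higher by 1 or more in both. Of 12934 genes past the filter, 170, or 1.31%, were so, with the same limit from the filter. The 6 genes were chosen with earlier results of these data known, so that share is background and not a contrast. The day 2 peak and the day 5 value could also be set side by side. Day 2 E-cad (-) cells differed from day 5 cells by -0.10 for Nhlh2, 0.21 for Nhlh1, -1.30 for Neurod4, -1.86 for Neurog1, -1.09 for Neurog2 and 1.05 for Neurod1. The Nhlh genes were therefore about as high on day 2 as on day 5, and Neurod4 and both neurogenins were higher on day 5. Neurod1 was higher on day 2 by its kept probe set alone, since its second probe set (92717_at) differed by -0.02. These are differences between single samples with no test.

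Day 2 E-cad (-) cells were also tested against the 3 Sox1 (+) samples together. No probe set was called (0.0%), while 6.99% had an unadjusted p under 0.05. Neurod1 was the 1 gene of 5 below that level, with a log2 difference of 1.52 (SE 0.413, limma adjusted p = 0.492). Its second probe set was under the filter and was not tested. The other differences were 1.49 for Nhlh2, 1.24 for Nhlh1, 0.54 for Neurod4 and -0.82 for Neurog1, with limma adjusted p-values from 0.849 to 0.948. The spread of the Sox1 (+) samples holds the change from day 3 to day 5, which widens these errors.

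Sox1 (+) cells of days 3 to 5 were tested as 1 group against the 3 ES samples, where 2710 probe sets, 10.5%, were called. None of the kept probe sets of the 5 genes was among them. Nhlh2 had a log2 change of 2.87 (limma adjusted p = 0.0593), Neurog1 1.98 (0.0934), Neurod4 1.53 (0.232), Nhlh1 0.37 (0.806) and Neurod1 -0.72 (0.176). The second probe set of Nhlh1, 95929_at, was called with 1.73 (adjusted p = 0.0489), a call that ended in 8 of 15 settings. At an unadjusted p under 0.05 the kept probe set of Nhlh2 was higher and those of Nhlh1 and Neurod1 were not, where 12.9% of all probe sets were, and Neurog1 was higher with the limit of the filter given above. Without the day 3 sample, Neurog1 and Nhlh2 both passed the threshold.

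None of the 5 genes was called in the remaining samples. Day 1 aggregates, day 2 E-cad (+) cells and day 3 Sox1 (-) cells had no called probe set against ES cells (0.0% in each). Nhlh2 had an intensity of 862 on day 1, above all ES samples, with a log2 change of 1.91 (limma adjusted p = 0.745). It was the 1 gene of 5 higher at an unadjusted p under 0.05 on day 1, against 2.62% of probe sets, and in day 2 E-cad (+) and day 3 Sox1 (-) cells 0 of 5 were, against 3.64% and 3.05%.

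Partners and opponents of these factors were taken from lists of general knowledge. Among the 3 E proteins, 1 was called on day 5, beside 4.22% of all probe sets: Tcf12 (98981_s_at, also known as HEB) had an intensity of 4867 on day 5, against 395, 573 and 732 in ES samples 1 to 3, a log2 change of 3.11 (limma adjusted p = 0.0112). It had 2020.0 in day 2 E-cad (-) cells and 741 in day 2 E-cad (+) cells. Tcf12 was also higher in the group of Sox1 (+) cells of days 3 to 5 (2.55, limma adjusted p = 0.00291, in 3 of 3 samples). Tcf3 and Tcf4 did not pass on day 5 (0.45 and 0.89). The median of the 3 log2 changes on day 5 was 0.89, against -0.01 over all genes tested.

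The inhibitors of bHLH factors moved in part. Of 9 Id, Hes and Hey genes tested, Id4 (2.40, limma adjusted p = 0.0152) and Id1 (1.64, adjusted p = 0.0300) rose on day 5, none fell, and the median was 0.94, beside 4.22% of all probe sets called either way on day 5. Id2, which lacks a DNA-binding region as all Id proteins do, had 2331 in day 2 E-cad (-) cells, against 319 in day 2 E-cad (+) cells, and 4186 on day 5, against 259 to 854 in ES cells. Its day 5 change of 2.93 missed the threshold (limma adjusted p = 0.0536), and over the 3 Sox1 (+) samples it was called (2.73, adjusted p = 0.00552). Hes5 (-0.03) and Hes1 (0.21) were not called on day 5. Without ES sample 2, the day 5 calls of Tcf12 (adjusted p = 0.0586), Id4 (0.0626) and Id1 (0.104) ended, and that of Id1 also ended without ES sample 3 (0.0631).

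Other neural bHLH genes gave few calls. Of 16 listed, 12 had a probe set and 6 passed the filter. None of the 6 was called on day 5 (median -0.07), beside 4.22% of all probe sets. Among them Atoh8 had an intensity of 1366 on day 5, against 201 to 388 in ES cells. In the sort of day 2, 1 of the 6, Atoh7, was higher in E-cad (-) than in E-cad (+) cells by 1 or more (537 and 94.9, a difference of 2.32). Beside it 7.71% of all probe sets were so, and none of the 6 was lower by that much. Atoh1, a factor of hindbrain and sensory lineages, was called lower over Sox1 (+) cells of days 3 to 5 (-1.98, limma adjusted p = 0.0441). Over that group 10.5% of all probe sets were called either way. That call of Atoh1 ended in 10 of 15 settings.

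Genes that proneural factors are known to switch on were followed as a readout. Of 14 tested, 4 rose on day 5, beside 2.0% of all probe sets called higher, and none fell, with a median log2 change of 1.13. Myt1 (95347_at), a zinc finger factor of early neurons, had an intensity of 812 on day 5, against 21.8, 29.0 and 48.2 in ES samples 1 to 3, and a log2 change of 4.11 (limma adjusted p = 0.00525). Ebf2 (102958_at), a factor of migrating young neurons, had 685 on day 5, against 70.2, 103 and 103 in ES samples 1 to 3, and a change of 2.72 (limma adjusted p = 0.00939). Cxcr4, a chemokine receptor, rose by 2.73 and Dll1, a Notch ligand made by cells entering neurogenesis, by 1.86 (limma adjusted p = 0.0353 and 0.0172). Cxcr4 differed from the bHLH genes in its order, with 238 in day 3 Sox1 (+) cells already. In day 2 E-cad (-) cells it had 51.3, within the ES range of 13.1 to 55.1. Without ES sample 2, 1 of these 4 calls was left, that of Myt1 (adjusted p = 0.0361), while Ebf2 came to 0.0503, Dll1 to 0.0895 and Cxcr4 to 0.116.

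In the sort of day 2, 5 of these 14 genes were higher in E-cad (-) than in E-cad (+) cells by 1 or more, namely Myt1, Ebf2, Insm1, Ebf3 and Ebf1, beside 7.71% of all probe sets, and none was lower by that much. Myt1 had 289 in day 2 E-cad (-) cells and 23.9 in day 2 E-cad (+) cells, and Ebf2 had 379 and 80.8. Against ES cells neither was called on day 2 (limma adjusted p = 0.0620 for Myt1 and 0.0933 for Ebf2).

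Genes of differentiating neurons were counted in the same way. Of 22 tested, 5 rose on day 5 and 1 fell (Nefh), beside 4.22% of all probe sets called either way. In day 2 E-cad (-) cells 8 of the 22 were higher by 1 or more than in E-cad (+) cells, beside 7.71% of all probe sets. Elavl4, an RNA-binding protein of neurons, had an intensity of 1769 on day 5, against 106 to 130.4 in ES cells, a log2 change of 3.72 (limma adjusted p = 0.00548). Map2, a microtubule protein of dendrites, had 792 in day 2 E-cad (-) cells and 222 in day 2 E-cad (+) cells, and its day 5 change was 3.38 (limma adjusted p = 0.00818). The median change of the 22 genes on day 5 was 0.39, so most of them did not move with Elavl4 and Map2. Without ES sample 2, 3 of the 5 rises were left.

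Markers of other cell types were summed beside these. Neural progenitor markers (10 genes) summed to 16902 in day 2 E-cad (-) cells and 3264 in day 2 E-cad (+) cells, and to 26335 on day 5, against 2302 to 3244 in ES cells. Mesoderm and streak markers (5 of 10 listed passed the filter) summed to 1201 in day 2 E-cad (-) cells and 1285 on day 5, against 960.1 to 1212 in ES cells. Endoderm markers (9 genes) summed to 1181 and 2599 in the same samples, against 988 to 1328 in ES cells, and on day 5 Foxa2, shared by endoderm and floor plate, was called. Foxa2 alone made up 1315 of the day 5 sum, and the other 8 genes summed to 1284, against 947 to 1280.2 in ES cells. Of 7 placode and neural crest genes, Ednrb rose and Foxd3 fell on day 5, and their sum was 12528 on day 5 and 5432 in day 2 E-cad (-) cells, against 2944 to 3725 in ES cells. Ednrb alone made up 9061 of the day 5 sum, and the other 6 genes summed to 3467 on day 5 and 4542 in day 2 E-cad (-) cells, against 2853 to 3636 in ES cells. Of 5 endocrine genes, where Neurod1 also acts, Chgb was called on day 5. Beside the calls in the endoderm, placode and endocrine lists, 4.22% of all probe sets were called either way on day 5. The part of these other cell types in the bHLH signals was not tested.

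**Figure D3:**
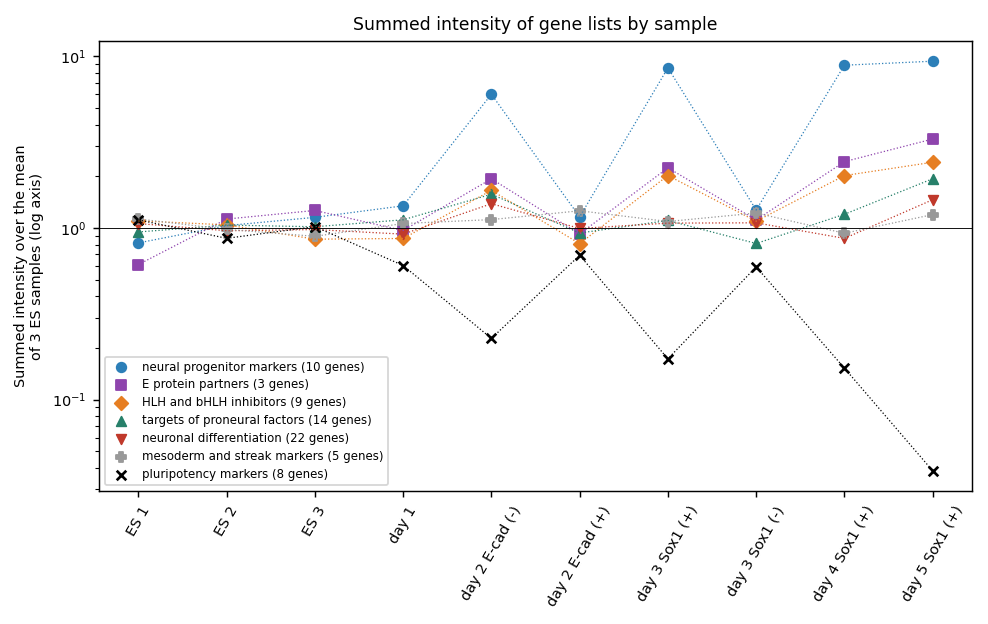
Summed intensity of 7 gene lists in each of the 10 samples, divided by the mean of the 3 ES samples (log axis, vertical); dotted lines only join the points, and the legend gives the genes summed. The sums of neural progenitor markers, E proteins and inhibitors were high in day 2 E-cad (-) and all Sox1 (+) cells, and those of targets and neuronal genes in day 2 E-cad (-) and day 5 cells. On day 5 Tcf12 alone made up 4867 of the E protein sum of 7767. Id2 alone made up 4186 of the inhibitor sum of 10253, so these sums do not show rises of whole lists.

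The genes whose pattern was most like each member were found by Pearson's r of log2 values over the 10 samples among 7690 genes. The samples share 1 cell line, 3 of them are ES replicates and few are high, so r is a description of these samples. Nhlh2 was most like Ebf2 (0.952), Rasl11b (0.947) and Rtn1 (0.945), a reticulon of neurons. Neurod4 was also most like Ebf2 (0.965), then Myt1 (0.961) and Slit2 (0.950), a secreted axon guidance protein. Neurog1 was most like Golga1 (0.958), Sos2 (0.954) and Ift81 (0.951). Among the members, Neurod4 and Nhlh2 were most alike (0.904), while Neurod1 had 0.25 with each of them.

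Nhlh1, by its kept probe set, was most like Ankra2 (0.964), whose values in ES samples 1 to 3 (89.4, 168 and 371) also rose in the order of the actin ratios. The other probe set of Nhlh1, 95929_at, went the opposite way, with 91.6, 34.9 and 28.3 in ES samples 1 to 3. These orders were read in the ES samples alone, and the ratio's part was not tested. The 2 probe sets of Nhlh1 had an r of 0.52 with each other, and 95929_at had 0.84 with Nhlh2 and 0.87 with Neurod4. Neurod1 was most like Fstl3 (0.890).

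**Figure D4:**
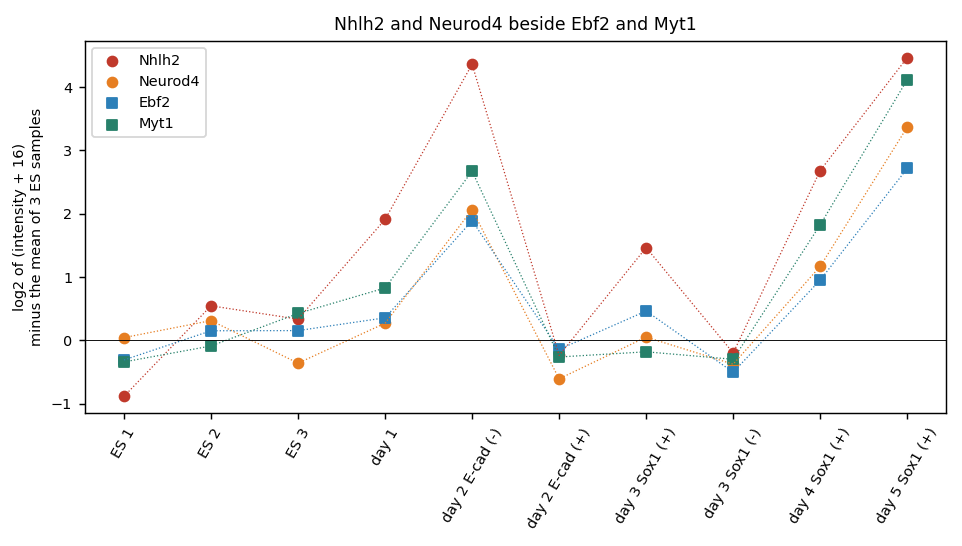
Level of Nhlh2 and Neurod4 (circles) and of Ebf2 and Myt1 (squares) in each sample, as log2 of the intensity plus 16 minus the mean of the 3 ES samples (vertical); dotted lines only join the points. All 4 genes had their 2 highest values in day 5 Sox1 (+) and day 2 E-cad (-) cells.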

How the data were processed

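RNA of 10 samples was measured on 30 Affymetrix U74 version 2 arrays. Each deposited value was a linear intensity of a probe set, and the authors had already scaled the arrays to trimmed means (2% trimmed) of 500.1 to 500.3; the summarising software is not given in the sources used here. Probe sets were named from the platform's annotation, with symbols updated by Entrez ID to RefSeq (GRCm38.p6), which also gave the promoters; 6 of 6 genes had a promoter entry, and the window of Neurog2 lay inside the annotated span of the gene and was not printed.

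Intensities were taken as log2 of the value plus a pseudocount of 16, a scale on which folds of low signals are understated. Probe sets with a mean at or above the 30th percentile of their chip (78.6, 117 and 102) were tested, 25690 of 36701 after 198 controls. Of the 10 probe sets of the 6 genes 7 passed, and 4 would pass without their 2 highest samples. For each gene the probe set of highest mean log2 intensity was kept, out of those that name no other gene. Limma 3.58.1 (R 4.3.3) was run per chip with Benjamini-Hochberg adjustment over all chips. In simulated data with 200 changed probe sets per size, limma recovered 28.5% and 85.5% of log2 changes of 1 and 2 for 3 samples against 3. For 1 sample against 3 it recovered 0.5% and 30.5%. The simulation gave the 3 samples the same change, with a spread averaged from each probe set's ES spread and the median ES spread. The Sox1 (+) samples are of different days, so recovery in the real fit may be lower.

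Sorts with 1 sample on each side were given as differences, with 1 on the log2 scale as threshold. The genes named were the 6 members, the 3 genes most like each, and members of 12 lists written from general knowledge. The members and lists were chosen with earlier results of these data known. Alternatives were quantile and 75th percentile scaling, pseudocounts of 1 and 64, no filter and the 60th percentile, a trend in the prior, adjustment within chips, other probe set rules, other thresholds and leaving out each sample. Figures were drawn with matplotlib 3.10.9 in Python 3.11.15.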

Additional observations from a re-analysis of the deposited data

Results flagged for a closer look

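Neurod4 lay on opposite sides of the ES samples in the 2 sorts of day 2. Its intensity was 216 in day 2 E-cad (-) cells, above all ES samples, and 20.4 in day 2 E-cad (+) cells, below all ES samples (27.2 to 52.9), a log2 difference of 2.67 between the sorts. The difference was not tested, since each sort had 1 sample, and neither sort differed from ES cells in limma after adjustment (adjusted p = 0.0933 for E-cad (-) and 0.734 for E-cad (+) cells). The value of 20.4 is a low signal, under the mean of 78.6 that a probe set of that chip had to reach to be tested.

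The second probe set of Nhlh2 (166815_at) lay on opposite sides of the ES samples in Sox1 (+) cells of 2 days. Its intensity was 579 on day 5, above all ES samples, and 26.9 on day 3, below all ES samples (73.5 to 182), a log2 difference of 3.79 between the days. The difference of these 2 samples was not tested, and the slope over the 3 days had a limma adjusted p of 0.352. Against ES cells neither day was called (limma adjusted p = 0.157 on day 5 and 0.241 on day 3). The kept probe set of Nhlh2 was above all ES samples on both days.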

How the results depend on the processing

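Of the 3 day 5 calls among the 5 genes 1 was left when the pseudocount was 1, when no filter was set and when the filter was at the 60th percentile (where Neurod4 and Neurog1 were not tested), and all probe sets called on day 5 came to 526 with no filter and to between 218 (without ES sample 2) and 1991 (without ES sample 1) with 1 ES sample left out, from 1084. For day 2 E-cad (-) cells against ES cells, from 7 probe sets and 0 genes called, the probe sets came to 4 and 131 with pseudocounts of 1 and 64, 0 with no filter, 231 with the filter at the 60th percentile, 166 with a trend, 59 with adjustment within chips, and 0 to 473 leaving out 1 ES sample; the genes came to 1 under the filter at the 60th percentile, with a trend and with the mean over a gene's probe sets, and 0 to 2 leaving out 1 ES sample. For Sox1 (+) cells against ES cells, from 2710 probe sets and 0 genes, leaving out 1 sample gave 1233 to 2162 probe sets and 0 to 2 genes, and leaving out ES sample 3 and day 5 together, chosen after seeing the data, gave 1055. Genes came to 1 with a pseudocount of 64, the filter at the 60th percentile, a trend, or any probe set of the gene. Day 4 calls came to 1 with a pseudocount of 64 and with adjustment within chips, and 0 to 1 leaving out an ES sample, and slope calls over all probe sets to 2 with a pseudocount of 64 and 0 to 1 leaving out a sample. Genes higher by 1 or more in the sort of day 2 came to 3, from 5, with a pseudocount of 64 or a threshold of 2, and in that of day 3 to 2 with a pseudocount of 1 and 0 with a threshold of 2, from 1. Signs turned only in values that were not called: Nhlh1 171195_f_at in Sox1 (+) cells (-0.14 without day 5 to 1.00 without day 3), Nhlh2 166815_at there (-0.48 without day 5 to 1.42 without day 3, and -0.27 without ES sample 3 and day 5), Neurod1 on day 5 (0.071 as the mean over its probe sets), Neurod4 in day 2 E-cad (-) against Sox1 (+) cells (-0.20 without day 3 to 1.45 without day 5) and the slope of Neurod1 (-0.44 without day 5 to 0.93 without day 3). The causes were not tested. Quantile and 75th percentile scaling moved no median by over 0.0653. No paired analysis was possible because only the ES samples carry replicate numbers.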
